A study of Mus musculus with 6 samples.

Results

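The inhibitor of DNA binding (ID) genes *Id1*, *Id2*, *Id3* and *Id4*, the SMAD genes *Smad1*, *Smad3*, *Smad6* and *Smad7*, and the pathway regulators *Skil* and *Bambi* were compared between IL-11+ and IL-11- fibroblasts of the inflamed colon. These transcripts are widely used as readouts of signaling by bone morphogenetic proteins (BMPs) and TGF-β. They were chosen by gene symbol, and 10 of 10 were among the 20327 symbols counted. RNA came from sorted cells of male C57BL/6 mice aged 9 to 15 weeks that carried the *Il11-Egfp* reporter, in which the promoter of *Il11* drives EGFP from a bacterial artificial chromosome. All mice had drunk 1.5% dextran sulfate sodium (DSS), which injures the colonic epithelium, for 5 days, and colons were taken on day 7. Both groups therefore shared the reporter and the colitis, and untreated mice were not analysed here. Live cells lacking Ter119, CD45, CD31 and EpCAM, the markers of erythroid, immune, endothelial and epithelial cells, were separated into EGFP-Positive (IL-11+) and EGFP-Negative (IL-11-) cells, with 3 libraries per group. The gate removes cells and does not select fibroblasts, and the EGFP+ sort was not fully pure.

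BMP and TGF-β ligands bind pairs of serine/threonine kinase receptors, which phosphorylate receptor-activated SMAD proteins. BMP receptors act mainly through SMAD1, SMAD5 and SMAD9, and TGF-β and activin receptors through SMAD2 and SMAD3, and both branches share SMAD4 in the nucleus. In the gut, BMP signals are strongest toward the luminal surface and restrain stem cell programs of the crypt, and stromal cells are a major source of both ligands and antagonists. The ID genes are direct BMP targets, and *Smad6*, *Smad7*, *Skil* and *Bambi* are induced by the pathway and then dampen it.

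Expression was measured by 5′Tag-seq, in which tags from the 5′ side of polyadenylated transcripts are counted. Sequencing gave 1057170, 1078179 and 1169817 tags for IL-11- and 1046538, 1022851 and 1049048 for IL-11+ fibroblasts, in the order of replicates 1, 2 and 3, which all values per library follow. At this depth the floor, set at 3 tags, corresponded to 2.56 to 2.93 CPM (counts scaled to a common library size). Levels below are normalized CPM, that is, CPM over the tags of tested genes after scaling by edgeR's TMM factors. *Il11* itself had 28, 51 and 89 tags in the IL-11- libraries and 1357, 732 and 2658 in the IL-11+ libraries. It was far higher in every EGFP+ library, as the sort requires.

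A gene was tested if 3 or more of the 6 libraries held 10 or more of its tags, which left 9334 symbols. Of the 10 genes, 9 were tested, and *Id4* was not. A call required an adjusted p below 0.05 together with more than a 2-fold difference. In the quasi-likelihood test of edgeR, adjusted by Benjamini-Hochberg over all tested genes, 0 of the 9 were called higher and 0 were called lower in IL-11+ fibroblasts, whereas 3.44% of all tested genes were called higher and 6.37% lower. With the adjusted p alone and no fold threshold the count was again 0 in each direction, against 6.84% of tested genes higher and 8.7% lower. At an unadjusted p under 0.05, edgeR gave 1 of the 9 genes (*Id1*), DESeq2 gave 1 (*Id3*) and edgeR with the replicate number as a block gave 2 (*Id1* and *Id3*), whereas 26.7%, 20.8% and 30.2% of all tested genes passed that level. The 9 tested readout genes thus showed no change that passed the test without the block, and *Id1* alone of them passed the adjusted p with it. With the block, 1048 of all 9334 tested genes were lower at the adjusted p alone and 871 were higher (edgeR quasi-likelihood, Benjamini-Hochberg). Levels were nevertheless separated in some of the 9 genes. For 4 of the 9, *Id1*, *Id2*, *Id3* and *Bambi*, every IL-11+ library was below every IL-11- library, a pattern seen in 16.7% of tested genes. The genes are few and were chosen with earlier results known, and the counts were not compared by a test. For 1 of the 9, *Smad1*, every IL-11+ library was above, as in 14.5% of tested genes. The median log2 fold change over the 9 genes was -0.26, with 5 negative and 4 positive values, and the median over all tested genes was -0.01. In 6 of the 9 genes the 95% interval of the difference lay within a 2-fold change in either direction. The intervals of the other 3, *Smad3*, *Smad6* and *Bambi*, reached a 2-fold difference, so that a change of that size is not excluded for them.

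**Figure D1:**
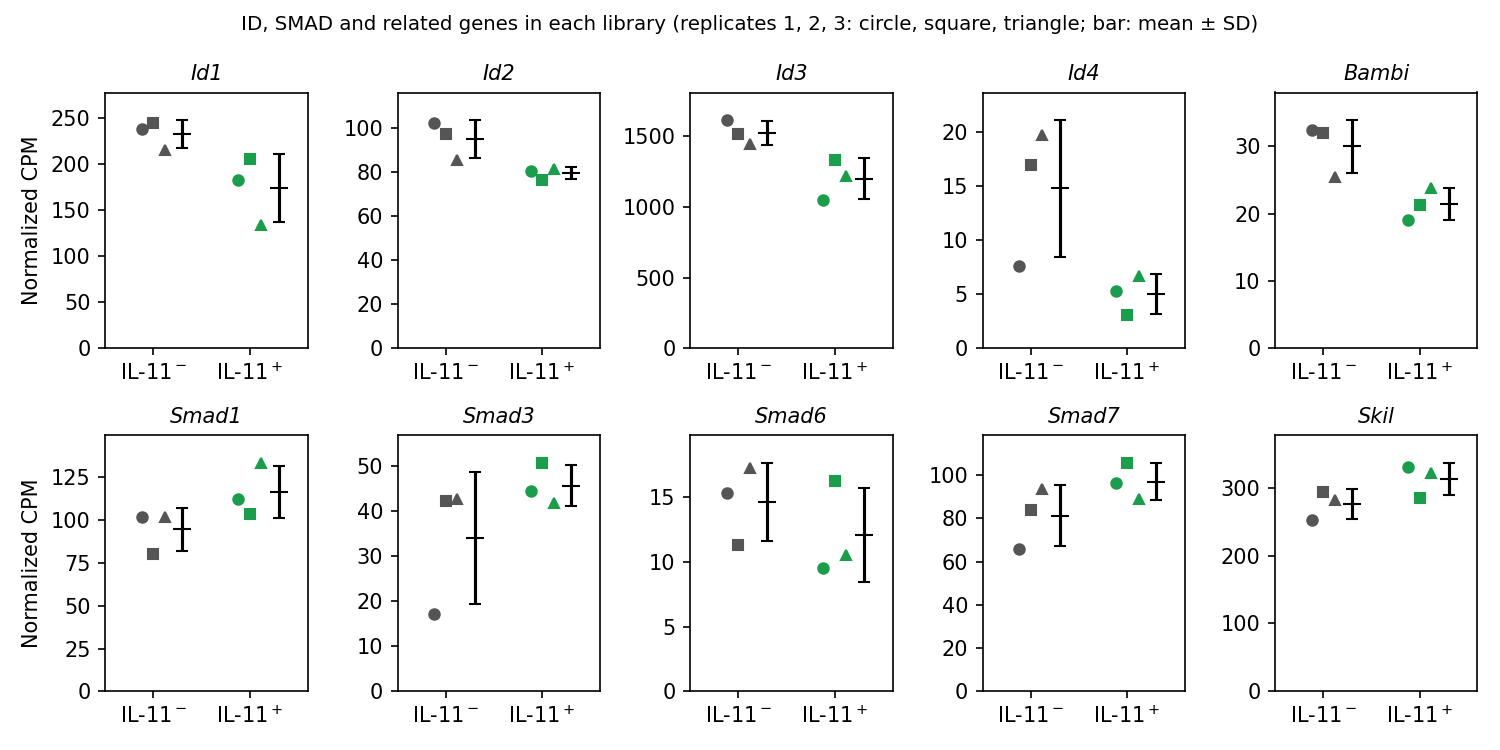
Normalized CPM of the 10 ID, SMAD and related genes in IL-11- (gray) and IL-11+ (green) fibroblasts; circles, squares and triangles are replicates 1, 2 and 3, and black bars show the mean and SD (n = 3 libraries per group). The vertical axes start at 0 and differ between genes. The IL-11+ libraries lie below all IL-11- libraries for the 4 ID genes and *Bambi*, with narrow gaps for *Id1*, *Id2*, *Id4* and *Bambi*.

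The ID proteins are helix-loop-helix factors without a DNA-binding region. They pair with E proteins and keep them off DNA, which holds cells in a less differentiated state. *Id1* (chromosome 2, 152736251 to 152737410 on the plus strand in GRCm38) had 249, 259 and 262 tags in the IL-11- libraries and 172, 202 and 140 in the IL-11+ libraries. All IL-11+ libraries were low, replicate 3 the most, and the highest of them (205 normalized CPM) was close to the lowest IL-11- library (215 normalized CPM). The means were 232 ± 15.2 and 174 ± 36.6 normalized CPM (SD, n = 3). This corresponded to a log2 fold change of -0.42 (SE 0.178, 95% interval -0.79 to -0.05), with an unadjusted p of 0.0295 and an adjusted p of 0.13 (edgeR quasi-likelihood, Benjamini-Hochberg). With the replicate number kept as a block, the log2 fold change of *Id1* was -0.44 and its adjusted p 0.0322 (edgeR quasi-likelihood, Benjamini-Hochberg), a fold change still under 2. That blocked result was not kept in the 6 fits that left out a library, where the adjusted p ranged from 0.0916 to 0.213 (edgeR quasi-likelihood, Benjamini-Hochberg). The log2 fold changes of these smaller fits, -0.55 to -0.31, lay on either side of the full value. Leaving out a library also leaves its same-numbered partner without a pair. These fits therefore cannot tell an unstable result from lost power. In the fit without the block, leaving out IL-11+ replicate 3 brought the log2 fold change to -0.26.

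*Id3* (chromosome 4, 136143497 to 136145755 on the plus strand), often coexpressed with *Id1*, had 1689, 1603 and 1759 tags in the IL-11- libraries and 986, 1310 and 1275 in the IL-11+ libraries. The groups were apart, and IL-11+ replicate 1 was the lowest library, not replicate 3 as for *Id1*. Mean levels were 1522 ± 84.8 and 1197 ± 143 normalized CPM (SD, n = 3). This gave a log2 fold change of -0.35 (SE 0.166, 95% interval -0.70 to 0.00) and an adjusted p of 0.19 (edgeR quasi-likelihood, Benjamini-Hochberg). With the replicate number kept as a block, the log2 fold change of *Id3* was again -0.35 (SE 0.136). The adjusted p was then 0.0585 (edgeR quasi-likelihood, Benjamini-Hochberg). In the fit without the block, leaving out IL-11+ replicate 1 gave a log2 fold change of -0.25.

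*Id2* (chromosome 12, 25093799 to 25097140 on the minus strand), which in lymphoid cells directs innate lineages, had 107, 103 and 104 tags in the IL-11- libraries and 76, 75 and 85 in the IL-11+ libraries. The tag counts were tight within each group, but after scaling the gap was small, with 85.4 normalized CPM in IL-11- replicate 3 and 81.1 in IL-11+ replicate 3. The log2 fold change was -0.26 (SE 0.173, 95% interval -0.62 to 0.11), and the adjusted p was 0.383 (edgeR quasi-likelihood, Benjamini-Hochberg). Of the 507 windows of 50 nt near the 5′ end of *Id2* transcripts, 8 also occur in *Gm6175*, so that a few tags could be shared. No such window was found for the other 9 genes.

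*Id4* (chromosome 13, 48261228 to 48266026 on the plus strand), a family member best known from neural and mammary progenitors, was scarce, with 8, 18 and 24 tags in the IL-11- libraries and 5, 3 and 7 in the IL-11+ libraries. All IL-11+ libraries were below all IL-11- libraries, but IL-11- replicate 1 was nearer to the IL-11+ libraries than to its own group. The means were 14.8 ± 6.33 and 5.01 ± 1.83 normalized CPM (SD, n = 3). *Id4* missed the filter, and when genes with 10 tags summed over the libraries were admitted, its log2 fold change was -1.52 (SE 0.484) with an adjusted p of 0.0403 (edgeR quasi-likelihood, Benjamini-Hochberg). At that filter the replicate block gave -1.50 and an adjusted p of 0.0159 (edgeR quasi-likelihood, Benjamini-Hochberg). The call was not kept in every smaller fit. In 4 of the 6 fits at that filter that left out a library, the adjusted p of *Id4* was between 0.0945 and 0.184 (edgeR quasi-likelihood, Benjamini-Hochberg), and the log2 fold changes over all 6 ranged from -1.83 to -1.25. The libraries whose removal ended the call were IL-11- replicates 2 and 3 (-1.42 and -1.25) and IL-11+ replicates 1 and 2 (-1.55 and -1.27). *A330033J07Rik* and *Gm49291* overlap *Id4* on the opposite strand, and tags were mapped in a single orientation.

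Summed over the 4 ID genes, the level was 1960.2, 1868 and 1765 normalized CPM in the IL-11- libraries and 1313, 1614 and 1437 in the IL-11+ libraries. The sum was lower in every IL-11+ library, and it followed *Id3*, which contributed most of the tags. The E proteins that ID proteins bind did not pass the test in either direction (0 of 3). *Tcf4*, the E protein gene with the most tags and the smallest p, had a log2 fold change of 0.19 (SE 0.164).

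Receptor-activated SMADs carry the signal from the receptor to DNA. *Smad1* (chromosome 8, 79338395 to 79399518 on the minus strand), which transmits BMP signals, had 107, 85 and 124 tags in the IL-11- libraries and 106, 102 and 140 in the IL-11+ libraries. The tag counts of the groups overlapped, and only after scaling were they apart, by the step from 102 normalized CPM in IL-11- replicate 1 to 104 in IL-11+ replicate 2. The log2 fold change was 0.30 (SE 0.178, 95% interval -0.08 to 0.67, Benjamini-Hochberg adjusted p = 0.31 by edgeR quasi-likelihood). It ranged from 0.18 to 0.38 when a library was left out. *Smad3* (chromosome 9, 63646767 to 63757994 on the minus strand), the main DNA-binding SMAD of TGF-β and activin signals, had 18, 45 and 52 tags in the IL-11- libraries and 42, 50 and 44 in the IL-11+ libraries. The groups overlapped and differed mainly through IL-11- replicate 1, which was low. The log2 fold change of *Smad3* was 0.41 (SE 0.284, 95% interval -0.18 to 1.01, Benjamini-Hochberg adjusted p = 0.395 by edgeR quasi-likelihood), and without that library it was 0.08.

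The remaining SMAD genes gave no call either (0 of 3 tested, of 4 listed). *Smad5*, a BMP-activated SMAD and the gene with the most tags among them, had a log2 fold change of -0.06 (SE 0.183). *Smad4*, the partner shared by both branches and the gene with the smallest p, had a log2 fold change of -0.16 (SE 0.232), and its tags ranged from 67 to 105 in IL-11- and from 51 to 72 in IL-11+ libraries. *Smad9*, the scarcest BMP-activated SMAD gene here, was not tested, with 9, 13 and 9 tags in the IL-11- libraries and 1, 4 and 3 in the IL-11+ libraries. Its groups were apart, as for *Id4*, at counts close to the floor.

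**Figure D2:**
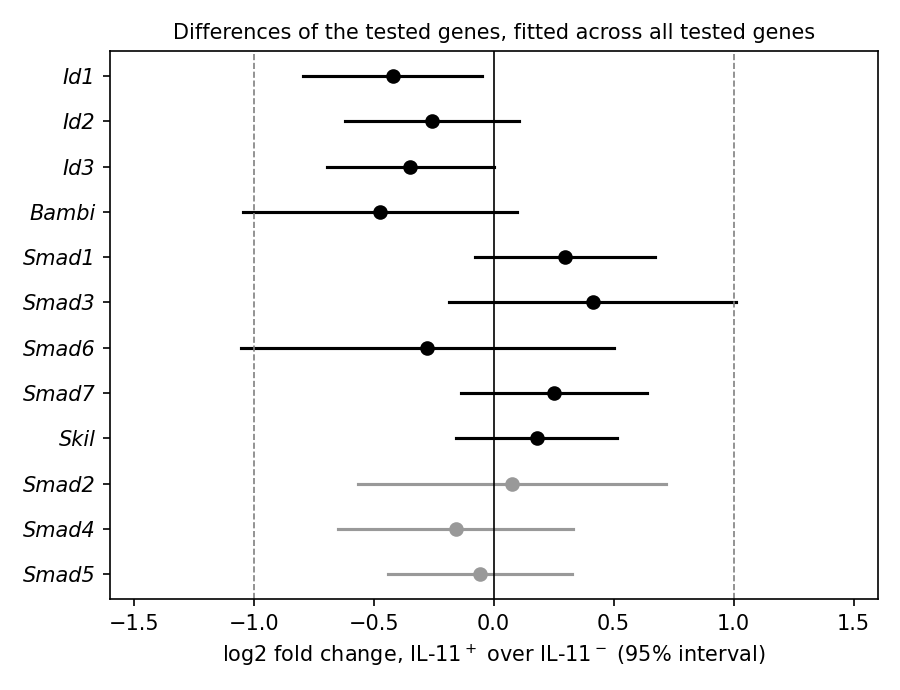
Log2 fold change of IL-11+ over IL-11- fibroblasts with its 95% interval for the 9 tested ID, SMAD and related genes (black) and for *Smad2*, *Smad4* and *Smad5* (gray), from the edgeR fit to all 9334 tested genes. Dashed lines mark a 2-fold change. All points lie between the dashed lines, and the interval of *Id1* (-0.79 to -0.05) alone among the black intervals leaves out 0.

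*Smad6* and *Smad7* encode the inhibitory SMADs, which occupy activated receptors and recruit ubiquitin ligases to them, *Smad6* mainly in BMP signaling and *Smad7* in both branches. *Smad6* (chromosome 9, 63953076 to 64022059 on the minus strand) had 16, 12 and 21 tags in the IL-11- libraries and 9, 16 and 11 in the IL-11+ libraries. The groups overlapped, and with so few tags its interval was the widest of the 9 genes (log2 fold change -0.28, SE 0.37, 95% interval -1.05 to 0.50). When a library was left out, its log2 fold change ran from -0.54 to -0.13. *Smad7* (chromosome 18, 75367529 to 75395935 on the plus strand) had 69, 89 and 114 tags in the IL-11- libraries and 91, 104 and 93 in the IL-11+ libraries. Here too the groups overlapped, with IL-11- replicate 1 the lowest library. The log2 fold change was 0.25 (SE 0.184, 95% interval -0.13 to 0.64), and it was 0.11 without IL-11- replicate 1. The adjusted p was 0.696 for *Smad6* and 0.427 for *Smad7* (edgeR quasi-likelihood, Benjamini-Hochberg).

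*Skil* encodes SnoN, a co-repressor that binds SMAD proteins, is degraded when TGF-β signals arrive and is then resynthesized as a target. *Skil* (chromosome 3, 31095058 to 31122577 on the plus strand) had 264, 312 and 343 tags in the IL-11- libraries and 312, 281 and 337 in the IL-11+ libraries. The groups overlapped at 276 ± 21.5 and 312 ± 24 normalized CPM (SD, n = 3). Its log2 fold change of 0.18 had the narrowest interval of the 9 genes (SE 0.16, 95% interval -0.16 to 0.51, Benjamini-Hochberg adjusted p = 0.525 by edgeR quasi-likelihood). Without IL-11- replicate 1 the log2 fold change of *Skil* was 0.099. *Bambi* encodes a receptor-like membrane protein without a kinase region that blocks both branches. *Bambi* (chromosome 18, 3507923 to 3516404 on the plus strand) had 34, 34 and 31 tags in the IL-11- libraries and 18, 21 and 25 in the IL-11+ libraries. All IL-11+ libraries were lower, by a step from 25.5 to 23.8 normalized CPM between the nearest libraries, both of them replicate 3. The log2 fold change of *Bambi* was -0.48 (SE 0.272, 95% interval -1.05 to 0.10, Benjamini-Hochberg adjusted p = 0.285 by edgeR quasi-likelihood).

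Among the inducible feedback genes, those with negative values (*Smad6*, *Bambi*) and those with positive values (*Smad7*, *Skil*) were thus equally many, and none was called. Of the 14 other SMAD co-repressors and regulators, 0 were called, and 2 passed the adjusted p without reaching a 2-fold change. *Pmepa1*, a TGF-β-induced gene whose product sequesters receptor-activated SMADs, had 139, 173 and 200 tags in the IL-11- libraries and 283, 242 and 349 in the IL-11+ libraries. All IL-11+ libraries were above, with a log2 fold change of 0.93 (SE 0.173, Benjamini-Hochberg adjusted p = 0.000859 by edgeR quasi-likelihood). The other was the homeobox co-repressor *Tgif1*, at 0.74 (SE 0.215), whose adjusted p (edgeR quasi-likelihood, Benjamini-Hochberg) went from 0.0238 to as much as 0.138 when a library was left out, with log2 fold changes from 0.61 to 0.95. The median log2 fold change of these 14 genes was 0.01.

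None of the 9 tested readout genes, which leave out *Id4*, was called, and some genes of ligands and secreted antagonists upstream of them were. Over all tested genes, 3.44% were called higher and 6.37% lower, and the lists were not compared by a test. Of 8 tested BMP ligand genes, 3 were higher and 1 was lower in IL-11+ fibroblasts. *Bmp7* had 24, 18 and 19 tags in the IL-11- libraries and 220, 161 and 136 in the IL-11+ libraries, with a difference of 3.24 on the log2 scale (SE 0.251, Benjamini-Hochberg adjusted p = 8.31e-08 by edgeR quasi-likelihood). *Bmp4* (1.07, SE 0.186) and *Bmp5* (1.07, SE 0.2) were close to the fold threshold on the log2 scale, *Bmp4* reaching 0.89 and *Bmp5* 0.84 at the lowest when a library was left out. *Gdf10* (-1.87, SE 0.553) had 27, 7 and 37 tags in the IL-11- libraries and 2, 4 and 11 in the IL-11+ libraries. Without IL-11- replicate 1 or 3 or IL-11+ replicate 3 it failed the filter and was not tested. Without IL-11+ replicate 1 or 2 it was tested but not called. In the fits that tested *Gdf10* its log2 fold change lay between -2.30 and -1.50. Genes of antagonists, which bind BMPs outside the cell, included *Grem1* (1.61, SE 0.188) and *Chrdl2* (1.59, SE 0.316), which were higher. *Chrdl1* (-4.16, SE 0.383), also an antagonist gene, was lower. *Chrdl1* had 73, 67 and 86 tags in the IL-11- libraries and 2, 1 and 8 in the IL-11+ libraries. It thus passed the filter through the IL-11- libraries alone, so it was not tested in the 3 of 6 fits without one of these. Of 6 tested BMP receptor genes 0 were called. *Acvr1*, the receptor gene with the smallest p, passed the adjusted p (0.00116, edgeR quasi-likelihood with Benjamini-Hochberg) and kept it in all 6 fits without a library, but its log2 fold change of 0.88 (SE 0.169) was below the fold threshold. *Bmpr2*, that with the most tags, had 0.26 (SE 0.179). Of the 9 TGF-β and activin ligand and receptor genes, *Inhba* (3.73, SE 0.29) and *Tgfb1* (1.18, SE 0.31) were higher and *Tgfb3* (-1.35, SE 0.225) lower. *Tgfb1* lost its call without IL-11- replicate 2 or IL-11+ replicate 1, with a log2 fold change of 0.84 at the lowest. *Inhbb* was called only with the replicate block, where its adjusted p went from 0.095 to 0.00494 (edgeR quasi-likelihood, Benjamini-Hochberg).

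Other genes that respond to these pathways moved in both directions. Of 6 tested BMP-responsive genes outside the ID and SMAD families, 2 were higher and 1 was lower, with a median log2 fold change of -0.37. *Runx2*, a skeletal transcription factor, had a log2 fold change of 2.07 (SE 0.297), and *Tnfrsf11b*, which encodes osteoprotegerin, 1.09 (SE 0.31), the latter losing its call in 3 of the 6 fits without a library. *Cdkn1a*, the cell cycle inhibitor p21 and the gene of this list with the most tags, had -1.26 (SE 0.167). Of 17 tested TGF-β-responsive genes, 0 were called higher and 4 were called lower, with a median of -0.22. At the adjusted p alone 2 of them, *Pmepa1* and *Tgif1* (above), were higher and 8 were lower (edgeR quasi-likelihood, Benjamini-Hochberg). The lower genes were *Acta2* (-3.80, SE 0.329), *Tagln* (-3.62, SE 0.291), *Cilp* (-2.28, SE 0.23) and *Junb* (-1.01, SE 0.162). *Acta2* and *Tagln* are contractile genes that were also counted among the smooth muscle markers. *Junb* fell short of the fold threshold in 3 of the 6 fits without a library, with -0.96 at the weakest, and *Jun*, the gene with the most tags, had -0.22 (SE 0.198) and was not called.

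Other stromal cell types can carry ID transcripts, and their markers also differed between the groups. Not every cell type is described, and markers of another, left out here, also summed lower in every IL-11+ library. Smooth muscle markers summed to 2769, 3413 and 4286 normalized CPM in the IL-11- libraries and 141, 207 and 394 in the IL-11+ libraries, and 9 of 10 were called lower (*Myh11*, which had the most tags, *Des*, *Acta2*, *Actg2*, *Cnn1*, *Tagln*, *Myl9*, *Lmod1* and *Synpo2*). Pericyte markers summed to 2725, 2354 and 2160 normalized CPM in the IL-11- libraries and 1079, 905 and 807 in the IL-11+ libraries, with 6 of 9 tested genes lower (*Rgs5*, which had the most tags, *Cspg4*, *Notch3*, *Mcam*, *Cox4i2* and *Ndufa4l2*), whereas *Kcnj8* and *Abcc9*, which made up much of the sum in the IL-11+ libraries, had log2 fold changes of 0.71 and 0.66 and passed the adjusted p as higher (0.0394 and 0.0167, edgeR quasi-likelihood with Benjamini-Hochberg), though not in every fit without a library. Of the genes called here, *Cnn1*, *Notch3*, *Cox4i2* and *Ndufa4l2* had 10 or more tags in the IL-11- libraries alone. Each of them therefore failed the filter and was not tested in the 3 of 6 fits that left out an IL-11- library. Those fits cannot show whether its call was stable. The smooth muscle and pericyte sums were lower in every IL-11+ library, as the ID sum was. The part of these cell types in the levels of the ID genes and *Bambi* was not tested. In sorted bulk samples, fewer cells of a type and less RNA per cell cannot be told apart.

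Endothelial cells, in which BMP signaling strongly induces ID genes, were removed by the gate. Their markers summed to 72.6, 87.6 and 85.4 normalized CPM in the IL-11- libraries and 19.1, 12.2 and 14.3 in the IL-11+ libraries. This sum came mostly from *Esam* and *Tek*, both called lower (2 of 2 tested), with *Esam* the most abundant. *Esam* had 10 or more tags in the IL-11- libraries alone, so it was not tested in the 3 of 6 fits without one of these. *Tek* lost its call without IL-11+ replicate 2, and its log2 fold change ran from -2.29 to -1.24 when a library was left out. The defining endothelial genes *Pecam1*, *Kdr*, *Tie1*, *Vwf* and *Egfl7* had 0 to 2 tags in every library, *Emcn* had 7, 2 and 1 and *Lyve1* 3, 0 and 2 in the IL-11- libraries and both had 0 in the IL-11+ libraries, and *Cdh5* and *Cldn5* were not among the symbols counted. Epithelial markers summed to 24.5 to 52.6 normalized CPM in IL-11- and 9.54 to 22.9 in IL-11+ libraries, most of it *Lgals4*, the 1 tested gene, which was lower (-1.26) but lost its call in 3 of the 6 fits without a library, at log2 fold changes from -1.66 to -1.02, and *Epcam* had 0 or 1 tag. Immune markers summed to 31.5 to 56.5 normalized CPM in IL-11- and 19.3 to 32.9 in IL-11+ libraries, so that the groups overlapped, and the 1 tested gene, *Cd74*, was lower (-1.50) but was not called in 4 of the 6 smaller fits, and over these 6 its log2 fold change ran from -2.26 to -1.14. *Ptprc* had 0 to 7 tags, and *S100a8* had 2, 4 and 2 tags in the IL-11- and 13, 1 and 12 in the IL-11+ libraries. The part of endothelial, epithelial and immune transcripts in the ID levels was not tested. Fibroblast markers, by contrast, summed to 24016, 24075 and 26826 normalized CPM in the IL-11- libraries and 44052, 36033 and 31924 in the IL-11+ libraries. Every IL-11+ library was higher, through *Dcn*, the most abundant, and *Col3a1*. Of the 12 genes, *Col3a1* and *Pdpn* were called higher and *Cd34* was called lower. Each lost its call in 1 or 2 of the 6 fits without a library, with log2 fold changes of at least 0.83 for *Col3a1* and 0.94 for *Pdpn* and at most -0.91 for *Cd34*. At the adjusted p alone *Lum* was lower as well, and *Dcn* and *Thy1* passed it as higher (edgeR quasi-likelihood, Benjamini-Hochberg). *Dcn* no longer did so in 5 of the 6 fits, *Lum* in 4 and *Thy1* in 2. Over these fits their log2 fold changes ran from 0.39 to 0.84 for *Dcn*, -0.81 to -0.40 for *Lum* and 0.71 to 1.19 for *Thy1*.

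SMAD complexes bind short DNA elements, so the promoter windows of these genes were searched for such letters. The windows, from RefSeq (GRCm38.p6), cover 250 bases before to 50 bases after a gene's start, and 6 of the 10 genes matched (*Id2*, *Id3*, *Id4*, *Smad1*, *Smad3* and *Smad6*). The palindromic element of SMAD3 and SMAD4, GTCTAGAC, occurs in 0.213% of the 32851 promoter windows of 300 bases. BMP-activated SMADs bind GC-rich elements. The first of these, GGCGCC, reads the same on both strands and occurs in 11.9% of windows. The second element is spelled GGAGCC when read on the strand of the gene. On the opposite strand it is spelled GGCTCC, and either form occurs in 30.8% of windows. All were searched on both strands, and no motif contains another. The stretches below show where the ID genes, whose levels lay on the same side, and *Smad6* hold these letters, with the motif in capitals and each stretch written 5′ to 3′ on the strand of the gene.
Id2, chr12:25096306-25096335, minus strand: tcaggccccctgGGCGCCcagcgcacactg
Id4, chr13:48260956-48260985, plus strand: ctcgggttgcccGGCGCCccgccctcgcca
Id3, chr4:136143623-136143652, plus strand: cctcgcatccgaGGCTCCgctgtcctcggc
Smad6, chr9:64022045-64022074, minus strand: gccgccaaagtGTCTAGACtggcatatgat
In *Id2* the capitals began 231 bases before the start, in *Id4* 148 bases before it, and in *Id3* 187 bases before it. The stretches of *Id2* and *Id3* lie within the genes as GENCODE annotates them, and that of *Id4* lies before its gene. In *Smad6* they began 4 bases before the start and ran across it. The gene-strand form of the second GC-rich element was also present in the windows of *Id2*, *Id4* and *Smad6*, and none of the 3 motifs in those of *Smad1* and *Smad3*. These matches describe letters in the windows, and binding at them was not measured.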

How the data were processed

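Stromal cells of the colon were profiled by 5′Tag-seq in 3 IL-11+ and 3 IL-11- libraries, which the methods trace to 3 mice. The authors used cutadapt 1.18 for trimming and Bowtie2 2.2.5 for mapping to mm10 RefSeq RNA in a single orientation, and deposited the resulting tag counts per gene symbol without normalization. The handling of tags that map to several genes was not given in the sources used here, and molecular identifiers are not mentioned, so floors and intervals of tag counts cover counting error only.

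Groups and replicate numbers were taken from the labels. Genes for which 3 or more of the 6 libraries held 10 or more tags were analyzed in R 4.3.3 with edgeR 4.0.16 (TMM factors, glmQLFit and glmQLFTest, group as the term, Benjamini-Hochberg adjustment over all 9334 tested genes). SE was derived from the fold change and the F statistic. The fit was tested on simulated data. Libraries of a group differed by more than sampling noise. Same-numbered libraries deviated together from their group means (r = 0.232, 0.22 and 0.27 over 5064 genes whose mean was 30 tags or more), so the replicate numbers were taken to pair the libraries, and a replicate block was run as an alternative (*Id1* log2 fold change -0.44).

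Alternatives were RLE, iterative TMM (3 iterations, adjusted p of 0.1, at least 5% of genes), library totals, DESeq2 1.42.0, 3 other filters, no fold threshold and each library left out. Some fits were added after seeing the data. These were the fits of *Id4* under the filter of 10 summed tags with the replicate block and without each library, and the blocked fits of *Id1* without each library.

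The 10 genes and all lists were chosen with earlier results of these data known. Named were the 10 genes, *Il11*, and from each list the called genes, the most abundant gene and, where none was called, the gene with the smallest p, although some genes and lists that met this rule are left out. *Smad9*, *Tgif1*, *Inhbb*, *Kcnj8*, *Abcc9*, *Lum*, *Thy1*, *S100a8* and the marker genes near 0 tags were named after their values were seen. Positions are from GENCODE release M21 (GRCm38) and promoter windows from RefSeq. Windows of 50 nt in the first 300 nt of transcripts were compared with all other transcripts to find shared tags.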

Additional observations from a re-analysis of the deposited data

How the results depend on the processing

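For the 9 tested genes, all 125 log2 fold changes under RLE, iterative TMM, library totals, DESeq2, the other filters, the replicate block and the removal of each library kept their direction, and 124 stayed on the same side of an adjusted p of 0.05. The exception was *Id1* with the replicate block, which raised the number of these genes lower at the adjusted p alone from 0 to 1 (log2 fold change -0.44, adjusted p = 0.0322 by edgeR quasi-likelihood with Benjamini-Hochberg, from 0.0322 to 0.41 over its alternatives). Over all 9334 tested genes the block gave 1048 lower at the adjusted p alone, against 812 without it. The block changed no other call among the 9. With it the adjusted p was 0.0585 for *Id3* and 0.224 to 0.698 for the rest (edgeR quasi-likelihood, Benjamini-Hochberg). *Smad6* could not be fitted at 10 tags in all libraries. With no filter, or with 10 tags summed over the libraries, 1 of the 10 genes was called lower, with and without the fold threshold. This was *Id4* (-1.51 and -1.52), which enters only there. Of all genes tested, 767 of 20327 were called lower with no filter and 758 of 13494 with 10 summed tags. At the adjusted p alone 1003 and 953 were lower.

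Over all tested genes, 321 were called higher and 595 lower. Without the fold threshold 638 were higher. At 10 tags in all libraries, 256 genes were called lower and 509 were lower at the adjusted p alone, of 7098 tested. Without each library in turn, genes called lower numbered 341 to 579, genes lower at the adjusted p alone 448 to 733, and genes higher at the adjusted p alone 418 to 541. Fewer libraries let fewer genes pass the filter (8760 to 9141 tested) and also give the test less power. The part of each in these counts was not tested. Scaling by library totals moved the median log2 fold change of tested genes by -0.08. Among the 10 genes, *Id4* had the counts closest to the floor.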
